A study of Mus musculus with 29 samples.

Results

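The genes described here are 10 members of the NF-κB system, matched by symbol in a count table of 28229 genes: the inhibitors Nfkbia, Nfkbie and the atypical family member Bcl3, the subunit genes Nfkb1, Nfkb2 and Relb, and the target or feedback genes Birc3, Traf1, Tnfaip3 and Icam1. All 10 were in the table, and 9 passed the filter on low counts. Their counts came from 29 mRNA libraries of NMM, a line of mouse melanoma cells that carry mutant NRAS. In the tested sequences cells received medium and then IFNγ, TGFβ and then IFNγ, medium and then TGFβ, IFNγ and then TGFβ, TGFβ and then medium, or IFNγ and then medium. Cells given medium at each step were the control. IFNγ was used at 100 ng/ml and TGFβ at 10 ng/ml, with 5 PBS washes between the stimuli. The first stimulus lasted 2, 6, 12 or 24 h and the second always 24 h, and each of these 7 sequences had 4 libraries, 1 per first duration. A further library received medium for 24 h and then a mix of the cytokines. All cells grew in medium with 10% fetal calf serum, and all belong to a single line, of which the labels name no separate cultures.

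NF-κB transcription factors are dimers of Rel family proteins. In resting cells they are held in the cytoplasm by IκB inhibitors, of which Nfkbia (IκBα) and Nfkbie (IκBε) are typical, while the Nfkb1 and Nfkb2 genes encode the precursors p105 and p100 that are processed to the subunits p50 and p52. Relb partners p52 in the non-canonical pathway, and Bcl3 is a nuclear IκB protein that binds p50 and p52 dimers. Many of these genes are themselves NF-κB targets and form feedback loops: Tnfaip3 (A20) is a ubiquitin-editing enzyme that dampens signalling, Birc3 (cIAP2) is a ubiquitin ligase at tumour necrosis factor receptors, Traf1 is an adaptor at the same receptors, and Icam1 is an adhesion molecule bound by leukocyte integrins. TGFβ acts mainly through SMAD proteins.

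On GRCm38, as the deposited table places them, the inhibitor genes are Nfkbia (ENSMUSG00000021025, chr12:55489410-55492647), Nfkbie (ENSMUSG00000023947, chr17:45555703-45563169) and Bcl3 (ENSMUSG00000053175, chr7:19808462-19822770). The subunit genes are Nfkb1 (ENSMUSG00000028163, chr3:135584655-135691547), Nfkb2 (ENSMUSG00000025225, chr19:46304320-46312385) and Relb (ENSMUSG00000002983, chr7:19606217-19629438), the last on the same chromosome as Bcl3. The others are Birc3 (ENSMUSG00000032000, chr9:7848699-7873186), Traf1 (ENSMUSG00000026875, chr2:34941750-34961772), Tnfaip3 (ENSMUSG00000019850, chr10:19000910-19015657) and Icam1 (ENSMUSG00000037405, chr9:21015985-21028817).

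Promoter windows from RefSeq (GRCm38.p6, 250 bases before to 50 bases after a start site) were held for 8 of the 10 genes, in 11 windows, and not for Nfkb1 and Relb. They are shown for Bcl3, Nfkbia and Nfkb2, whose levels the results below turn on, and for Icam1, which was almost silent. The motifs searched for were the κB consensus, the interferon-gamma activated site GAS (TTCNNNGAA) and the core of the interferon-stimulated response element, on either strand. Capitals mark the matches, and each sequence is written on the strand of its gene.
Bcl3, chr7:19822706-19823005, minus strand: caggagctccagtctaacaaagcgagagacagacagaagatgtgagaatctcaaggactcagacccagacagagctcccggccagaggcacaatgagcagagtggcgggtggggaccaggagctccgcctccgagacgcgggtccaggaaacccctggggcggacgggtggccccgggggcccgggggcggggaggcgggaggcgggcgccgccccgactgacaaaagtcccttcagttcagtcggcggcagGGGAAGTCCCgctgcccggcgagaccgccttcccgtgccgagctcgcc
Nfkbia, chr12:55492598-55492897, minus strand: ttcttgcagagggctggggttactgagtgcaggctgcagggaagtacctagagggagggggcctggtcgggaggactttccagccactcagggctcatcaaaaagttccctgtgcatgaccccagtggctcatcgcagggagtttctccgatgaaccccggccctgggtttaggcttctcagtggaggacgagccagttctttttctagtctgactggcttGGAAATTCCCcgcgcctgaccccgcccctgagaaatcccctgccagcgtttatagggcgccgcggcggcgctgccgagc
Nfkb2, chr19:46304487-46304786, plus strand: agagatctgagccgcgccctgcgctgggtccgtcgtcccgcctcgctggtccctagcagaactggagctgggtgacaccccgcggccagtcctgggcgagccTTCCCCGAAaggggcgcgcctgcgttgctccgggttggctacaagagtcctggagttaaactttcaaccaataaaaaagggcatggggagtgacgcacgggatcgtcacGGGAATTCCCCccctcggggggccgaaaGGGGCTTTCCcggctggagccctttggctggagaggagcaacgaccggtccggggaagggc
Icam1, chr9:21015690-21015989, plus strand: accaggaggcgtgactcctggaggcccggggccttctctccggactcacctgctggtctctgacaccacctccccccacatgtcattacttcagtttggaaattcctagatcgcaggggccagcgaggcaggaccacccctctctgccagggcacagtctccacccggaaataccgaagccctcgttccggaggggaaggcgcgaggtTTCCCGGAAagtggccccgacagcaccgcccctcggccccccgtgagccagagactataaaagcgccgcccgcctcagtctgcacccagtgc

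The κB consensus matched in 7 windows of 5 genes, Bcl3, Nfkb2, Nfkbia, Nfkbie and Tnfaip3. Over all 32817 RefSeq windows of this length 8.46% held it. In Bcl3 the match began at position 3 after the start site and in Nfkbia at -29. In the Nfkb2 window shown, matches began at -39, -38 and -11, where the first 2 overlap. The Nfkb2 windows chr19:46305445-46305744 and chr19:46305680-46305979, not shown, overlap. The match at 11 in the former is thus the same as that at -225 in the latter, so these windows are not independent. The former also held a match at -236. GAS matched in Nfkb2 at -148 and in Icam1 at -42, against 8.29% of all windows. The interferon-stimulated response element core matched in 0 member windows, against 3.43% of all windows. No motif of the 3 was found in the windows of Birc3 and Traf1, which says only that these letters are not there. The same holds for the κB consensus in Icam1. Its window has tggaaattcc, which differs from the consensus at the first base, and such variants were not searched for in any window.

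The libraries held 17179530 to 23668015 counts, of which 0.596% to 1.31% came from mitochondrially encoded genes. Of the cytokine markers, Cxcl9 (log2 fold change 9.42), Irf1 (3.72) and Cd274 (3.70) rose with a second stimulus of IFNγ, and Fbln2 (2.42), Ccn2 (2.19) and Smad7 (0.61) rose with one of TGFβ. With IFNγ second Ccn2 rose too (0.95), while Fbln2 fell (-0.89) and Smad7 was not called (-0.01), so Ccn2 was not particular to TGFβ here. The 6 h medium library stood apart. The standard deviation of its log2 values from the other 3 medium libraries was 0.596, against 0.320 to 0.361 for those 3. In comparisons with medium throughout, the counts of members and of other pathway genes are therefore also given without it. Counts of the separate gene lists include it unless said otherwise. Of 8 melanocyte lineage markers 4 were in the table. Mitf and Gpnmb passed the filter on low counts, while Pmel stayed at or below 0.444 CPM and Sox10 at or below 0.135 CPM. Their summed level ran from 61.1 to 96.2 CPM after medium then TGFβ, from 107 to 178 CPM after medium then IFNγ and from 163 to 290 CPM in medium. With IFNγ second Mitf rose (log2 fold change 0.29) while Gpnmb had -0.58 and was not called, and with TGFβ second both fell. Of 5 endothelial markers, all in the table, only Cdh5 passed the filter. It fell with IFNγ second (-0.56) and rose with TGFβ second (0.96), and the summed level was 16.7 to 23.6 CPM after medium then TGFβ, 5.56 to 9.90 CPM after medium then IFNγ and 7.28 to 12.5 CPM in medium. Ptprc, which defines leukocytes, did not exceed 0.172 CPM, and the leukocyte sum (6 of 10 in the table, of which Cd14 and Cd68 passed the filter) was 26.3 to 58.9 CPM after medium then TGFβ, 33.8 to 66.8 CPM after medium then IFNγ and 52.8 to 82.1 CPM in medium. Cd14 fell with TGFβ second (-0.63), where Cd68 was not called (-0.26). With IFNγ second neither Cd14 (-0.30) nor Cd68 (-0.16) was called. Fibroblast markers (6 of 7) summed to 195 to 234 CPM after medium then IFNγ and 577 to 1943 CPM in medium. The sum was 476 to 606 CPM after medium then TGFβ and 356 to 683 CPM after TGFβ then medium. Of the 5 tested, 4 fell with IFNγ second: Dcn (-2.14), Col3a1 (-2.08), Col1a1 (-1.45) and Pdgfrb (-0.55). With TGFβ second 1 fell, Col3a1 (-0.79). The part of these markers in the results below was not tested. In bulk RNA, fewer cells of a type and less RNA per cell cannot be told apart.

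Levels are given as CPM, read counts relative to the TMM-scaled total of each library, and groups of 4 values always run in the order of 2, 6, 12 and 24 h of the first stimulus. For levels per kilobase, the length of a gene was the union of all its annotated exons. It was 12061 bases for Nfkb1, 4584 for Nfkb2 and 1610 for Nfkbia, and the order below depends on it. As plain CPM after medium then IFNγ, Nfkb1 was highest, with a mean of 150 against 96.4 for Nfkb2. Per kilobase of exon, the libraries of medium then IFNγ held most Nfkb2 (21.0 ± 1.6 CPM per kb, SD, n = 4) and Nfkbia (18.1 ± 1.6), whose ranges overlap. Nfkb1 followed at 12.5 ± 0.4 CPM per kb, then Relb at 7.04 ± 0.60 and Bcl3 at 5.31 ± 0.94, which overlap each other. Birc3 (3.15), Tnfaip3 (2.95) and Nfkbie (2.14 CPM per kb) formed a lower tier with overlapping neighbours, and Traf1 (0.182) and Icam1 (0.0112 CPM per kb) lay far below. In medium the order was nearly the same, with Nfkbia at 14.5 ± 2.3 and Nfkb2 at 14.1 ± 2.3 CPM per kb overlapping at the top, Nfkb1 at 9.11 ± 0.59 and Relb at 5.30 ± 0.69. Birc3 (2.91), Bcl3 (2.44), Tnfaip3 (2.16) and Nfkbie (1.29 CPM per kb) overlapped from each to the next, so Bcl3 stood level with Birc3 there and above it after medium then IFNγ.

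**Figure D1:**
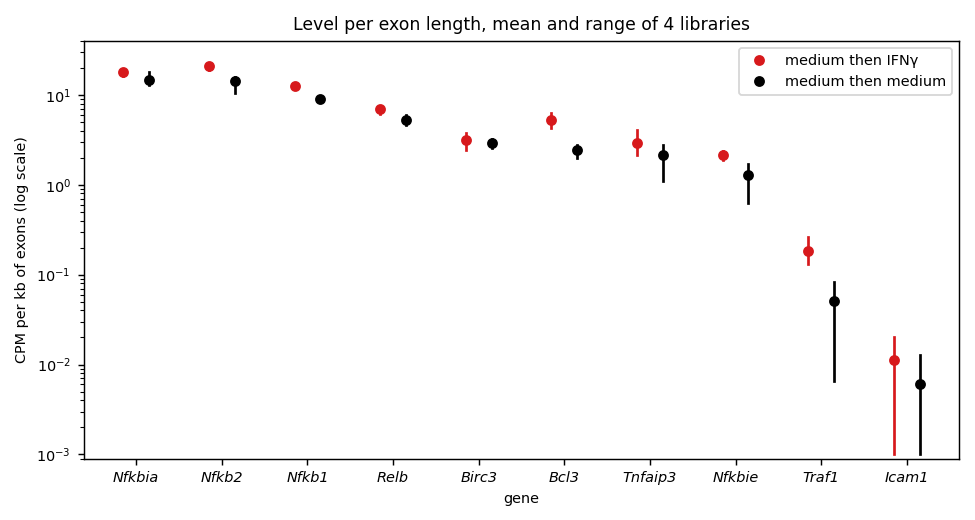
Level of each gene per kilobase of exon (CPM per kb, log scale) after medium then IFNγ (red) and medium then medium (black), with points for the mean and lines for the range of 4 libraries. Libraries at 0 are drawn at the lower edge of the axis. After medium then IFNγ the genes span from 21.0 CPM per kb for Nfkb2 to 0.0112 CPM per kb for Icam1.

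Icam1 was almost silent in these cells under every sequence. Its 10 reads in all fell in 9 of the 29 libraries, with 2, 0, 1 and 1 counts after medium then IFNγ and 0, 0, 1 and 1 counts in medium. A count of 3 corresponds to 0.133 to 0.173 CPM at these depths, and the highest library reached 0.0888 CPM, so no difference was detectable at this depth and no fold is given. An antisense gene (Gm47079) shares 511 exon bases with Icam1, and the strand setting of the counting is not given in the sources used here. Traf1 was low but measurable, with 1 to 62 counts per library and at least 10 counts in 23 libraries.

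A second stimulus of 24 h of IFNγ, set against 24 h more of medium, tests how the system stands after a day of the cytokine. Of the 9 tested members 8 rose and 0 fell, and the members' median log2 fold change was 0.46, beside -0.01 over all 14935 genes tested. The share of all tested genes called was 43.8% in either direction and 22.7% higher. The largest changes were in Traf1, at a log2 fold change of 1.75, and Bcl3, at 1.09, followed by the inhibitor Nfkbie at 0.74 and the subunit gene Nfkb2 at 0.58. Birc3 was the exception, with a log2 fold change of 0.09.

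Among the inhibitors, Bcl3 had 15.7, 14.3, 12.0 and 10.5 CPM after medium then IFNγ, against 6.90, 4.91, 6.41 and 5.98 CPM after medium then medium. All IFNγ libraries lay above all medium libraries, and the log2 fold change was 1.09 ± 0.20 (SE, edgeR quasi-likelihood test, adjusted p = 0.00013). Nfkbie had 6.21, 5.71, 7.25 and 6.89 CPM after medium then IFNγ, against 3.61, 1.91, 4.93 and 5.20 CPM in medium, and again the groups did not overlap (0.74 ± 0.18, edgeR adjusted p = 0.0023). Nfkbia, the classical feedback inhibitor, had 31.1, 31.2, 25.8 and 28.5 CPM after medium then IFNγ, against 20.5, 28.6, 22.8 and 21.2 CPM in medium. It was higher at each of the 4 durations although the groups overlapped, through the 6 h medium library (0.33 ± 0.09, edgeR adjusted p = 0.0059). Bcl3 shares 161 of its 2475 exon bases with the antisense gene Gm16175. Reads from that stretch cannot be assigned to either gene without the strand setting.

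The subunit genes rose by smaller and tighter steps. Nfkb1 had 147, 146, 150 and 157 CPM after medium then IFNγ, against 108, 101, 113 and 118 CPM in medium. With the groups well apart, its log2 fold change of 0.45 ± 0.05 had the smallest adjusted p of the members (edgeR, 5.9e-07). Nfkb2 had 97.5, 85.8, 101 and 101 CPM after medium then IFNγ, against 67.6, 48.7, 69.9 and 72.1 CPM in medium (0.58 ± 0.09, edgeR adjusted p = 2.9e-05), without overlap. Relb had 28.0, 29.2, 28.3 and 24.0 CPM after medium then IFNγ, against 17.7, 18.9, 22.5 and 23.2 CPM in medium, where the closest libraries were nearly level (0.40 ± 0.12, edgeR adjusted p = 0.0080). Nfkb2 shares 299 exon bases with Psd and 531 with AC114539.1, each on the opposite strand.

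Traf1 had 1.24, 2.29, 1.17 and 1.72 CPM after medium then IFNγ, against 0.457, 0.0577, 0.740 and 0.553 CPM in medium, from 23 to 41 and from 1 to 15 counts. The groups did not overlap (1.75 ± 0.39, edgeR adjusted p = 0.00076), and without the 6 h medium library, which held 1 count, the log2 fold change was 1.33. Tnfaip3 had 17.0, 15.5, 29.7 and 23.0 CPM after medium then IFNγ, against 16.1, 7.91, 20.2 and 18.2 CPM in medium. It differed more between durations than between stimuli, and was higher with IFNγ at each duration (0.46 ± 0.13, edgeR adjusted p = 0.0050). Birc3 had 17.4, 18.9, 12.2 and 14.7 CPM after medium then IFNγ, against 12.7, 16.1, 15.3 and 14.3 CPM in medium, with the IFNγ libraries on either side of the medium ones (0.09 ± 0.12, edgeR adjusted p = 0.57). Groups did not overlap for 6 of the members, all higher, as for 18.1% of all genes tested (16.1% were lower without overlap). Without the 6 h medium library 8 members were called higher and 0 lower, with 39.1% of all genes called. Without the replicate block Nfkbia (edgeR adjusted p = 0.059) and Tnfaip3 (0.26) were not called. Without the 2 h medium library Relb was not called (0.30, edgeR adjusted p = 0.050). Leaving out all 2 h libraries lost the calls of Nfkbia (edgeR adjusted p = 0.058) and Relb (0.077). Relb was also lost without all 6 h libraries (0.054), and Tnfaip3 without all 12 h libraries (0.050). When libraries or durations were left out, 6 to 8 members were called.

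**Figure D2:**
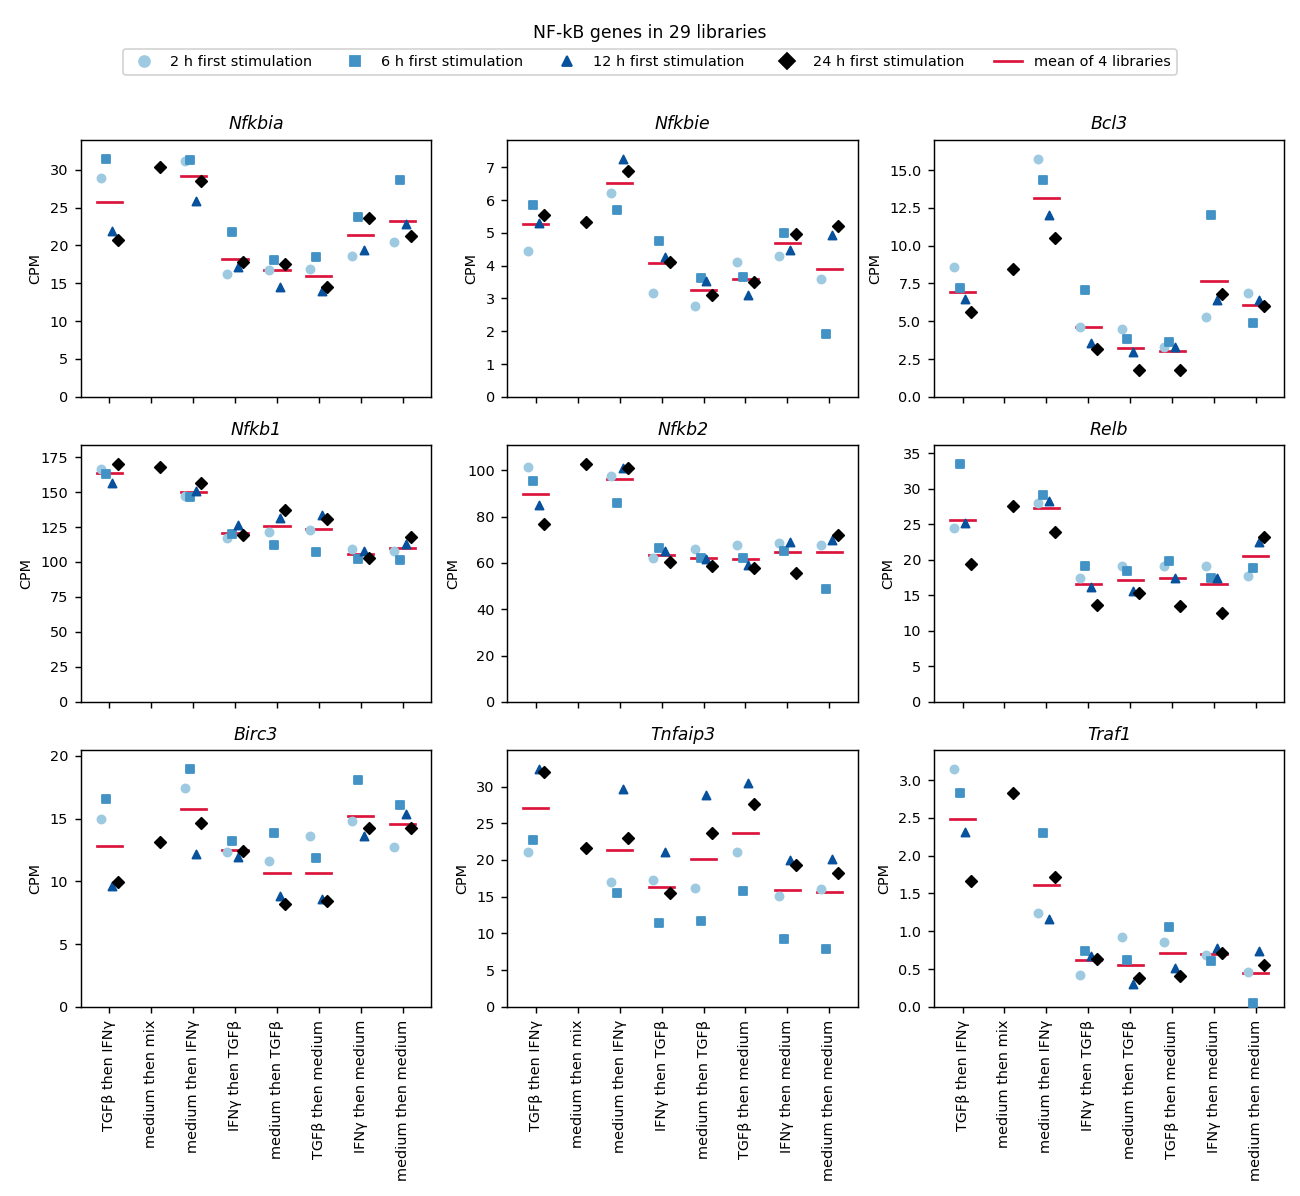
CPM of the 9 tested genes in every library by sequence of stimuli, with markers for the duration of the first stimulus and red lines for the mean of 4 libraries. The 2 sequences that end in IFNγ and the mix library hold the highest levels of Nfkb1 and Nfkb2 (76.7 CPM or more for Nfkb2), and the Bcl3 mean is lowest after TGFβ then medium (3.00 CPM) and medium then TGFβ (3.24 CPM).

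Of 106 other genes of the pathway 89 were tested, and 42 rose and 9 fell with IFNγ, where 22.7% of all genes were called higher and 21.2% lower. Without the 6 h medium library 43 rose and 8 fell, with 39.1% of all genes called. The other subunits and inhibitors gave 3 higher and 1 lower of 6: Nfkbib, which encodes IκBβ, rose by 0.72 ± 0.08 on the log2 scale, the subunit genes Rel by 0.48 ± 0.11 and Rela by 0.22 ± 0.06, and Nkiras2, an inhibitor of IκB degradation, fell by 0.29 ± 0.07. Of 4 ligands tested 2 rose, Tnfsf10 (TRAIL) by 3.48 ± 0.43 and Il18 by 1.03 ± 0.41, while Tnfsf12 (TWEAK) had -0.78 ± 0.24. Without the 6 h medium library 1 of the 4 ligands rose and 0 fell. Among 13 receptors 5 rose and 2 fell. The viral RNA sensor Tlr3 rose by 1.46 ± 0.41, Eda2r by 0.48 ± 0.12 and the tumour necrosis factor receptor Tnfrsf1a by 0.43 ± 0.06, against -0.52 ± 0.08 for Il1r1 and -1.04 ± 0.13 for Tlr4.

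Of 25 adaptors and kinases 9 rose and 4 fell. Rnf31, a subunit of the linear ubiquitin ligase complex, had a log2 fold change of 0.77 ± 0.11, the Toll-like receptor adaptor Myd88 0.69 ± 0.15 and Irak2 0.56 ± 0.15, while Birc2 had -0.19 ± 0.07, Tab1 -0.21 ± 0.06 and Irak4 -0.38 ± 0.11. Negative regulators gave 4 higher and 0 lower of 11, led by Tnip3 at 1.73 ± 0.29, Nlrc5 at 1.60 ± 0.25 and the deubiquitinase Cyld at 0.40 ± 0.09. Of 31 other targets 19 rose and 1 fell. Irf1 rose by 3.72 ± 0.28 and the monocyte chemokine Ccl2 by 3.45 ± 0.35, to 111 CPM after medium then IFNγ, against 9.66 CPM in medium. Nos2, the inducible nitric oxide synthase, averaged 2.58 ± 4.00 CPM after medium then IFNγ, with 1 library at 8.56 CPM, and 0.0247 CPM in medium, which is under the level of 3 counts. Csf2 was lower, at -1.32 ± 0.49. Several of the genes that rose, among them Irf1, Nlrc5 and Tnfsf10, are also classical interferon-induced genes. Whether their rise came through NF-κB was not tested.

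**Figure D3:**
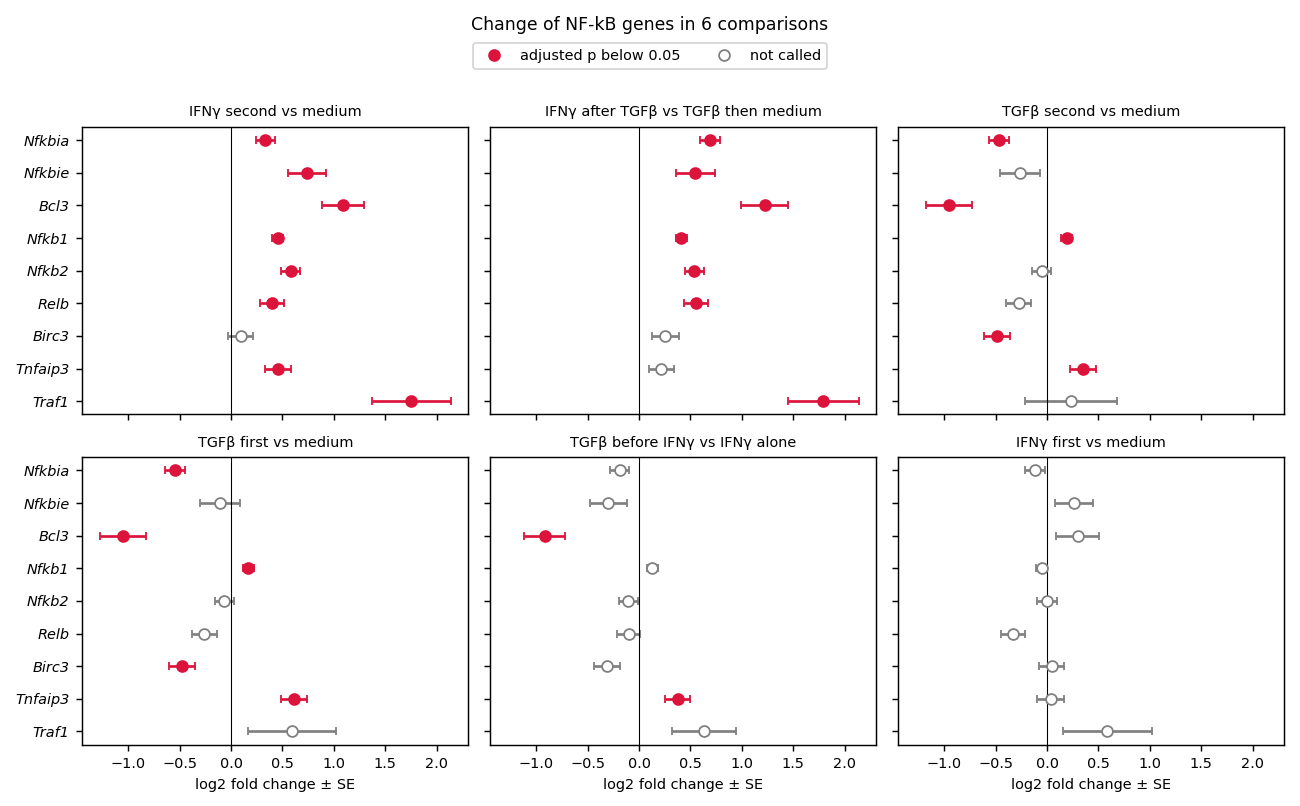
Log2 fold change with its SE (edgeR) for the 9 tested genes in 6 comparisons, filled where the adjusted p was below 0.05. With IFNγ second 8 genes are filled to the right, and in the 2 comparisons of TGFβ with medium Bcl3, Nfkbia and Birc3 are filled to the left while Nfkb1 and Tnfaip3 are filled to the right.

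When IFNγ was given after TGFβ instead, and compared with TGFβ then medium, 7 of 9 members rose and 0 fell (36.4% of all genes called, 18.8% higher and 17.6% lower). The median log2 fold change of the members was 0.55, beside -0.01 over all genes. Nfkbia had 29.0, 31.4, 21.9 and 20.7 CPM after TGFβ then IFNγ, against 16.9, 18.5, 14.0 and 14.5 CPM after TGFβ then medium, with all of the first above all of the second (0.69 ± 0.10, edgeR adjusted p = 9.1e-06). Bcl3 had 8.56, 7.17, 6.48 and 5.61 CPM after TGFβ then IFNγ, against 3.31, 3.64, 3.27 and 1.78 CPM after TGFβ then medium (1.22 ± 0.22, edgeR adjusted p = 0.00020). Its groups also stood apart, but at a lower level than without TGFβ. Traf1 had 3.14, 2.83, 2.31 and 1.66 CPM after TGFβ then IFNγ, against 0.853, 1.05, 0.516 and 0.402 CPM after TGFβ then medium (1.79 ± 0.35, edgeR adjusted p = 0.00031), with all of the first above all of the second.

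Among the subunits, Nfkb1 had 166, 163, 157 and 170 CPM after TGFβ then IFNγ, against 123, 107, 134 and 131 CPM after TGFβ then medium (0.41 ± 0.05, edgeR adjusted p = 3.3e-06). Nfkb2 rose by 0.54 ± 0.09 and Relb by 0.55 ± 0.12 (edgeR adjusted p = 0.00011 and 0.00084). Nfkbie rose by 0.55 ± 0.19 (edgeR adjusted p = 0.026). That call was lost without the 6 h library of TGFβ then IFNγ (adjusted p = 0.099) and without the 12 h (0.094) or 24 h (0.072) library of TGFβ then medium. Birc3 (0.26 ± 0.13, adjusted p = 0.12) and Tnfaip3 (0.22 ± 0.12, adjusted p = 0.18) did not pass, although Birc3 did so without the 2 h library of TGFβ then medium (0.38, adjusted p = 0.030). Groups did not overlap for 6 members, all higher, against 12.5% of all genes higher and 12.3% lower. Of the 89 other pathway genes 52 rose and 7 fell, against 18.8% and 17.6% of all genes. Those that rose included Nfkbiz (0.90 ± 0.14), Nfkbib (0.87 ± 0.08), Rel (0.47 ± 0.11), Tlr3 (2.54 ± 0.47), Myd88 (0.96 ± 0.15), Nlrc5 (2.47 ± 0.26) and the chemokine Cxcl10 (4.67 ± 0.74). Among the 7 that fell were Tlr4 (-0.71 ± 0.14), Il1r1 (-0.64 ± 0.08), Traf5 (-0.47 ± 0.13) and Nkiras2 (-0.30 ± 0.07).

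The response to IFNγ with TGFβ first was set against that without it as an interaction. No member was called (0 of 9 by edgeR and by DESeq2, 1 at an unadjusted p below 0.05, beside 0.395% of all genes called, 0.321% higher and 0.0737% lower). The member at that level was Nfkbia, whose change was larger by 0.36 ± 0.13 on the log2 scale after TGFβ (edgeR adjusted p = 0.27). For Bcl3 the difference was 0.13 ± 0.30 and for Nfkb1 -0.04 ± 0.08.

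A second stimulus of TGFβ moved the members apart: 2 of 9 rose, Nfkb1 and Tnfaip3, and 3 fell, Bcl3, Birc3 and Nfkbia, where 23.3% of all genes were called, 11.7% higher and 11.6% lower. Bcl3 had 4.46, 3.80, 2.97 and 1.75 CPM after medium then TGFβ, against 6.90, 4.91, 6.41 and 5.98 CPM in medium (-0.95 ± 0.22, edgeR adjusted p = 0.0034). Nfkbia had 16.8, 18.0, 14.5 and 17.5 CPM after medium then TGFβ, against 20.5, 28.6, 22.8 and 21.2 CPM in medium (-0.47 ± 0.10, edgeR adjusted p = 0.0010). In both genes every TGFβ library lay below every medium library, as for 8.42% of all genes, and 0 members stood wholly above, against 7.73%. Birc3 had 11.6, 13.8, 8.86 and 8.20 CPM after medium then TGFβ, against 12.7, 16.1, 15.3 and 14.3 CPM in medium, lower at each duration but with 1 overlap (-0.48 ± 0.13, edgeR adjusted p = 0.0075). The Birc3 call was lost without the replicate block (adjusted p = 0.11) and with only the compared groups in the fit (0.10), and the Bcl3 call with only those groups (0.064). Both calls were also lost without all 12 h libraries (edgeR adjusted p = 0.10 for Birc3 and 0.052 for Bcl3). The same held without all 24 h libraries (0.082 and 0.061).

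Nfkb1 had 121, 112, 131 and 137 CPM after medium then TGFβ, against 108, 101, 113 and 118 CPM in medium, so it was higher at each duration by a small step (0.19 ± 0.05, edgeR adjusted p = 0.012). Tnfaip3 had 16.2, 11.7, 28.9 and 23.7 CPM after medium then TGFβ, against 16.1, 7.91, 20.2 and 18.2 CPM in medium, level at 2 h and higher from 6 h (0.35 ± 0.13, edgeR adjusted p = 0.047). Relb had -0.28 ± 0.12, Nfkbie -0.26 ± 0.20, Nfkb2 -0.05 ± 0.09 and Traf1 0.23 ± 0.45, none of them called. The calls of Nfkb1 and Tnfaip3 were lost without the replicate block (edgeR adjusted p = 0.060 and 0.47) and with only the compared groups (0.083 and 0.10). Without the 6 h medium library 1 member was called higher and 5 lower, with 21% of all genes called: Tnfaip3 was lost (0.26, edgeR adjusted p = 0.16) and Nfkbie (-0.51, 0.012) and Relb (-0.37, 0.027) were called lower. Leaving out the 2 h medium library also gave a call for Relb (-0.38, edgeR adjusted p = 0.024). The Tnfaip3 call was lost as well without the 12 h or 24 h medium library or the 12 h or 24 h library of medium then TGFβ (adjusted p from 0.069 to 0.18), and the Nfkb1 call without that last library (adjusted p = 0.068).

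Of the 89 other pathway genes 7 rose and 25 fell, where 11.7% of all genes were called higher and 11.6% lower. Without the 6 h medium library 6 rose and 25 fell, with 21% of all genes called. The receptors gave 2 higher and 6 lower of 13, with the receptor accessory chain Il1rap at 0.41 ± 0.07, Tlr4 at -0.72 ± 0.13 and Tlr3 at -1.81 ± 0.45. Cd40, a receptor of the non-canonical pathway, averaged 0.483 CPM after medium then TGFβ and 0.0421 CPM in medium, and Ngfr averaged 0.0256 CPM after medium then TGFβ and 0.411 CPM in medium. Among 25 adaptors and kinases 0 rose and 6 fell, including Ikbke (-1.29 ± 0.42), Myd88 (-0.64 ± 0.15) and Map3k14, the kinase of the non-canonical pathway (-0.44 ± 0.10). Nfkbiz fell by 0.76 ± 0.14 and was the 1 called gene of 6 other subunits and inhibitors. Of 31 other targets 4 rose, led by Mmp9 (1.72 ± 0.37), Myc (0.82 ± 0.12) and Plau (0.72 ± 0.16), and 10 fell, with Il6 (-2.08 ± 0.75), Cxcl10 (-1.98 ± 0.68) and Tapbp (-1.70 ± 0.40) the lowest. The 4 ligands gave 0 higher and 2 lower, Tnfsf10 (-1.86 ± 0.63) and Tnfsf12 (-0.79 ± 0.24), and the 11 negative regulators 1 higher, Zc3h12a (0.52 ± 0.16), and 1 lower, Nlrc5 (-0.97 ± 0.25). Without the 6 h medium library the ligands gave 0 higher and 1 lower, and the negative regulators 0 higher and 1 lower.

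To ask what was left of a first stimulus after the washes and 24 h in medium, TGFβ then medium and IFNγ then medium were each set against medium throughout. After TGFβ then medium 2 of 9 rose, Nfkb1 and Tnfaip3, and 3 fell, Bcl3, Birc3 and Nfkbia, with 29% of all genes called (14.5% higher, 14.5% lower). The medium libraries here are those used for TGFβ given last, so the comparisons are not independent. Bcl3 had 3.31, 3.64, 3.27 and 1.78 CPM after TGFβ then medium, against 6.90, 4.91, 6.41 and 5.98 CPM in medium (-1.05 ± 0.23, edgeR adjusted p = 0.0012), and Nfkbia had 16.9, 18.5, 14.0 and 14.5 CPM after TGFβ then medium, against 20.5, 28.6, 22.8 and 21.2 CPM in medium (-0.54 ± 0.10, edgeR adjusted p = 0.00020). Neither gene's groups overlapped, as for 9.65% of all genes in this direction, and 0 members stood wholly above, against 9.27%. Tnfaip3 had 21.1, 15.7, 30.5 and 27.6 CPM after TGFβ then medium, against 16.1, 7.91, 20.2 and 18.2 CPM in medium, higher at each duration (0.62 ± 0.13, edgeR adjusted p = 0.00080), a call lost without the replicate block (adjusted p = 0.17).

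Birc3 had 13.6, 11.9, 8.60 and 8.44 CPM after TGFβ then medium, against 12.7, 16.1, 15.3 and 14.3 CPM in medium, slightly higher at 2 h and lower from 6 h (-0.48 ± 0.13, edgeR adjusted p = 0.0066). This call was lost without the replicate block (adjusted p = 0.093) and with only the compared groups (0.12). It was also lost without all 12 h (edgeR adjusted p = 0.10) or all 24 h libraries (0.067). Nfkb1 rose by 0.17 ± 0.05 (edgeR adjusted p = 0.020), a call lost without the 12 h (adjusted p = 0.11) or 24 h (0.061) library of TGFβ then medium, without the block (0.078) and with only the compared groups (0.14). Relb (-0.26 ± 0.12) was called only without the 2 h medium library (-0.36, edgeR adjusted p = 0.027) or the 6 h one (-0.35, adjusted p = 0.030), and without the 6 h medium library the members gave 2 higher and 4 lower, with 26.7% of all genes called. Nfkbie (-0.11 ± 0.19), Nfkb2 (-0.06 ± 0.09) and Traf1 (0.60 ± 0.43) did not pass. Of the 89 other pathway genes 8 rose and 32 fell, against 14.5% of all genes in each direction, among them Rela (-0.19 ± 0.06), Nfkbiz (-0.68 ± 0.14), Tlr3 (-2.37 ± 0.47), Myd88 (-0.76 ± 0.15), Tapbp (-2.22 ± 0.42) and Ccl2 (-1.68 ± 0.43) lower and Mmp9 (1.98 ± 0.36) higher. Without the 6 h medium library 6 of the 89 rose and 31 fell.

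After IFNγ then medium 0 of 9 members were called by edgeR and 0 by DESeq2, with 1 at an unadjusted p below 0.05, where 0.79% of all genes were called (0.382% higher, 0.408% lower). In 0 members did the groups not overlap, against 2.58% of all genes higher and 2.5% lower. The member at that level was Relb, with 19.1, 17.4, 17.4 and 12.5 CPM after IFNγ then medium, against 17.7, 18.9, 22.5 and 23.2 CPM in medium. The libraries differed mainly at 12 h and 24 h (-0.33 ± 0.12, edgeR adjusted p = 0.17), and the change was called without the 2 h medium library (-0.43, adjusted p = 0.049). Bcl3 had 5.29, 12.0, 6.40 and 6.80 CPM after IFNγ then medium, against 6.90, 4.91, 6.41 and 5.98 CPM in medium, so 1 library, that of 6 h, stood out (0.30 ± 0.21). Of the 89 other pathway genes 1 rose, Il1rap (0.41 ± 0.07), and 0 fell. Without the 6 h medium library 0 members were called, and 1 other pathway gene rose and 0 fell, with 0.436% of all genes called.

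With TGFβ given before IFNγ, against medium before IFNγ, 1 of 9 members rose and 1 fell (15.8% of all genes called, 8.64% higher and 7.19% lower). Bcl3 had 8.56, 7.17, 6.48 and 5.61 CPM after TGFβ then IFNγ, against 15.7, 14.3, 12.0 and 10.5 CPM after medium then IFNγ. The drop was of like size at each duration, -0.87, -0.99, -0.88 and -0.89 on the log2 scale (-0.92 ± 0.20, edgeR adjusted p = 0.0025), without overlap, as for 7.58% of all genes lower. Tnfaip3 had 21.1, 22.7, 32.3 and 32.0 CPM after TGFβ then IFNγ, against 17.0, 15.5, 29.7 and 23.0 CPM after medium then IFNγ, higher at each duration (0.37 ± 0.12, edgeR adjusted p = 0.042). That call was lost without the 2 h (adjusted p = 0.14), 12 h (0.054) or 24 h (0.11) library of medium then IFNγ, without the 6 h (0.20) or 24 h (0.091) library of TGFβ then IFNγ, and without the replicate block (0.55).

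Nfkb1 was the 1 member to lie wholly above, as did 7.99% of all genes, at 166, 163, 157 and 170 CPM after TGFβ then IFNγ against 147, 146, 150 and 157 CPM after medium then IFNγ, without passing the test (0.13 ± 0.05, edgeR adjusted p = 0.11). Nfkbia had -0.19 ± 0.09, Birc3 -0.31 ± 0.12, Nfkbie -0.30 ± 0.18, Nfkb2 -0.11 ± 0.09, Relb -0.10 ± 0.12 and Traf1 0.63 ± 0.31. Of the 89 other pathway genes 5 rose and 16 fell, against 8.64% and 7.19% of all genes. Of the 31 other targets 2 rose, Mmp9 (1.88 ± 0.40) and Myc (0.55 ± 0.12), and 7 fell, including the adhesion molecule Vcam1 (-1.77 ± 0.24) and Il6 (-1.65 ± 0.47). Nos2 averaged 0.306 CPM after TGFβ then IFNγ and 2.58 CPM after medium then IFNγ, where 1 library of medium then IFNγ held 8.56 CPM.

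In the opposite order, IFNγ before TGFβ against medium before TGFβ, 0 of 9 members were called by edgeR and 0 by DESeq2, with 1 at an unadjusted p below 0.05, where 0.0937% of all genes were called (0.0268% higher, 0.067% lower). In 0 members did the groups not overlap, against 1.92% of all genes higher and 2.6% lower. The member at that level was Bcl3, with 4.60, 7.08, 3.59 and 3.15 CPM after IFNγ then TGFβ, against 4.46, 3.80, 2.97 and 1.75 CPM after medium then TGFβ (0.50 ± 0.23, edgeR adjusted p = 0.40). TGFβ given after IFNγ, against IFNγ then medium, left 1 member higher and 1 lower (7.27% of all genes called, 3.63% higher and 3.64% lower). Bcl3 had 4.60, 7.08, 3.59 and 3.15 CPM after IFNγ then TGFβ, against 5.29, 12.0, 6.40 and 6.80 CPM after IFNγ then medium, lower at each duration with overlapping groups (-0.75 ± 0.21, edgeR adjusted p = 0.030). Nfkb1 had 117, 120, 126 and 119 CPM after IFNγ then TGFβ, against 110, 102, 108 and 103 CPM after IFNγ then medium, without overlap (0.19 ± 0.05, edgeR adjusted p = 0.028). Birc3 lay wholly below without passing the test, where 5.66% of all genes lay below and 5.36% above.

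Neither call was stable. The Bcl3 call was lost without the 2 h, 12 h or 24 h library of IFNγ then TGFβ or the 6 h or 24 h library of IFNγ then medium (adjusted p from 0.087 to 0.16), and the Nfkb1 call without the 6 h or 12 h library of IFNγ then TGFβ or the 12 h or 24 h library of IFNγ then medium (0.079 to 0.13). Without the replicate block neither was called (0.18 for Bcl3 and 0.14 for Nfkb1). The effect of TGFβ after IFNγ and that after medium were compared as an interaction, which called 0 of 9 members by edgeR and by DESeq2 and 0 at an unadjusted p below 0.05. Across all genes it called 0%. Of the 89 other pathway genes 0 were called in either direction for IFNγ before TGFβ, and 2 rose (Mmp9, 1.28 ± 0.35, and Myc, 0.51 ± 0.12) and 4 fell (among them Vcam1, -1.78 ± 0.30, and Tlr4, -0.62 ± 0.13) for TGFβ after IFNγ.

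Levels also differed between libraries of different first durations. As a factor over all sequences, duration was called for 34.1% of all genes and for 6 of the 9 members. Tnfaip3 varied most: relative to 2 h its log2 level was -0.44 at 6 h, 0.54 at 12 h and 0.34 at 24 h (edgeR adjusted p = 7.7e-07), and in each of the 7 sequences with 4 libraries the 12 h library was above the 6 h library. Birc3 ran the other way, at 0.15, -0.29 and -0.26 (adjusted p = 0.0017), and Nfkbia stood at 0.23, -0.13 and -0.04 (adjusted p = 0.0031). Bcl3 (adjusted p = 0.017), Relb (0.018) and Nfkb1 (0.037) were called too, with Bcl3 at -0.50 and Relb at -0.27 at 24 h. The labels do not say whether the libraries of a duration were handled together, so duration and handling cannot be told apart.

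A steady trend with log2 duration within a sequence was called for 0 of the 9 members by edgeR, both on its own and against medium, in every sequence, beside 0% to 1.33% of all genes. Bcl3 levels were lower at each later duration after medium then IFNγ, after TGFβ then IFNγ and after medium then TGFβ, where its slope was -0.34 ± 0.14 per doubling of time (edgeR adjusted p = 0.47). Without the 6 h libraries 4 slopes were called, where 3.36% to 6.99% of all genes were called in the same sequences: Bcl3 after medium then TGFβ (-0.33 ± 0.08, adjusted p = 0.038), Birc3 after TGFβ then medium (-0.21 ± 0.05, 0.035) and after TGFβ then IFNγ (-0.18 ± 0.05, 0.0495), and Nfkb2 after TGFβ then IFNγ (-0.11 ± 0.03, 0.041). Without the 2 h libraries 1 was called, Nfkbie in medium (0.66 ± 0.18, adjusted p = 0.048), where 6.93% of all genes were.

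**Figure D4:**
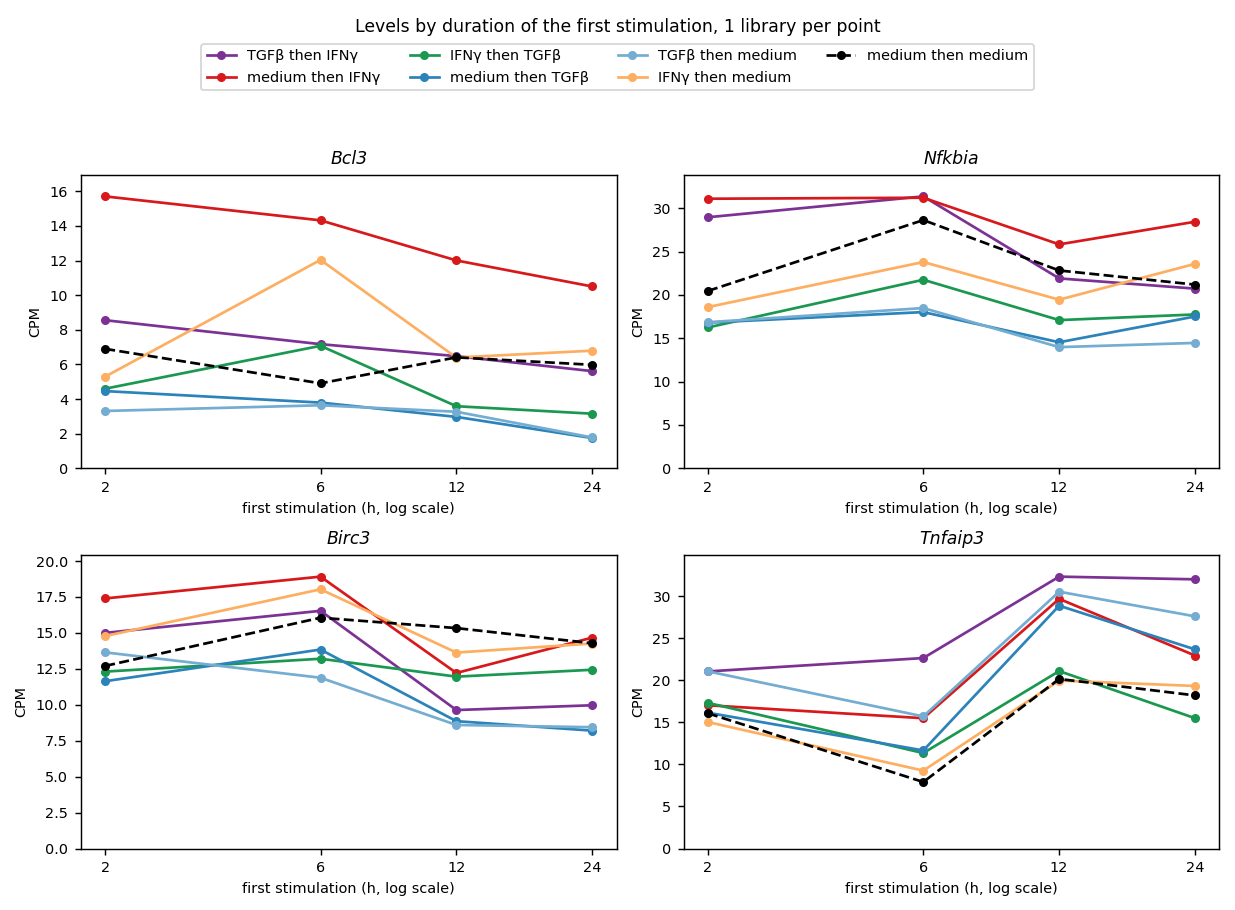
CPM of Bcl3, Nfkbia, Birc3 and Tnfaip3 against the duration of the first stimulus (h, log scale) for the 7 sequences, 1 library per point. Bcl3 is highest after medium then IFNγ at every duration (15.7 to 10.5 CPM), and Tnfaip3 dips at 6 h and peaks at 12 h in most sequences.

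As a description over the 29 libraries, which share the stimuli and the durations, the members' levels moved together to different degrees. The median correlation between members was 0.556 (Pearson r of log2 CPM), and 0.749 over the 8 sequence means. Nfkb2 went with Traf1 (r = 0.86) and Relb (0.84), and Nfkbia with Bcl3 (0.82), while Tnfaip3 went against Birc3 (-0.62). The genes outside the list whose levels were most like those of a member were, for Nfkb2, Usp17la (r = 0.97), Mrpl13 and Pcgf5 (0.96 each), and for Nfkb1, Xpo6 and Rap2b (0.96 each) and St6galnac4 (0.95). For Bcl3 they were Ly6c1 (0.95), Myo18b and Vangl1 (0.94 each), for Nfkbia Tmbim6 and Dusp1 (0.94 each) and Adamts1 (0.93), and for Relb Lmo4, Rnf31 and Cept1 (0.92 each), of which Rnf31 is on the list of adaptors and kinases. For Birc3 Xdh was closest (0.92), for Tnfaip3 Epha2 (0.92), for Traf1 Upp1 (0.91) and for Nfkbie Zzef1 (0.89).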

How the data were processed

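Stranded mRNA libraries were sequenced on an Illumina NovaSeq, per the labels' protocols. The authors deposited 1 table of raw counts per Ensembl gene for 29 libraries, and the submitters' processing notes name HISAT, without a version, and GRCm38. For the counting tool, annotation and strand setting, nothing is given in the sources used here. The table left 0 columns and 0 rows unassigned.

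The analysis used edgeR 4.0.16 in R 4.3.3: filterByExpr (grouped, minimum count 10, 14935 genes kept), TMM scaling, and a quasi-likelihood model (glmQLFit, glmQLFTest) over all 29 libraries with a term per sequence and a factor for first duration as replicate block, leaving 18 residual degrees of freedom. The p-values were adjusted by Benjamini-Hochberg over the 14935 genes, and a call is an adjusted p below 0.05. The SE is the log2 fold change over the root of F. CPM were computed with TMM-scaled totals, with a prior count of 2 on the log2 scale. Trends were fitted with a slope on log2 duration per sequence (14 residual degrees of freedom). There were 8 comparisons and 2 interactions. The test was run on simulated counts with planted changes and no effect of duration, where only the recovery of fold changes was required. The use of durations as replicates was not checked by it. Precision is limited by library totals of 17179530 to 23668015 counts.

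The 4 durations of a sequence stood as its replicates, so p-values measure the spread between these samples only, and it may be technical. No 2 libraries of a group agreed within sampling noise (lowest chi-square per degree of freedom 3.77). As a check of pairing, same-duration libraries of compared groups were correlated in their deviations from group means. In the comparisons of TGFβ or IFNγ before or after the other cytokine r was 0.106 to 0.401. In those with medium throughout it was -0.041 to 0.233. These ranges overlap and r was not tested, so it does not settle where the pairing held.

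Some genes used to check the labels are not reported here. Members and lists were chosen with earlier results of these data known. Named besides the members are called genes with the 3 highest or 3 lowest fold changes of their list, and for likeness the 3 genes with the highest r for a member. Alternatives were DESeq2 1.42.0, its size factors in edgeR, no filter, a minimum count of 50, no replicate block, only the groups compared, and leaving out libraries or durations. Sequences are from RefSeq (GRCm38.p6), and coordinates are on GRCm38.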

Additional observations from a re-analysis of the deposited data

Results flagged for a closer look

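The single library given medium and then a mix of IFNγ and TGFβ entered no comparison. In it 8 of the 10 genes lay above all 4 medium libraries: Nfkb1 at 168 CPM, Nfkb2 at 103 CPM, Nfkbia at 30.3 CPM, Relb at 27.6 CPM, Tnfaip3 at 21.7 CPM, Bcl3 at 8.45 CPM, Nfkbie at 5.34 CPM and Traf1 at 2.83 CPM. The exceptions were Birc3 (13.1 CPM) and Icam1 (0 counts). The share of all genes that lay above the 4 medium libraries was not counted, so the 8 cannot be read as particular to these genes. Beside the 24 h library of medium then IFNγ, Bcl3 stood lower in the mix by a log2 difference of -0.31 and Traf1 higher by 0.69, without replicates for either. No library of a member stood out in its group of 4 by Dixon's test, over 63 groups.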

How the results depend on the processing

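Of 522 values that re-tested a called fold change of a member, 445 kept the call and its direction, 77 lost the call and 0 reversed. Of 1242 that re-tested one not called, 14 gained a call. With TGFβ second, 5 members were called, 2 without the replicate block, 1 with only the compared groups, and 1 to 6 when libraries or durations were left out. For TGFβ first, 5 became 2 without the block, 3 with only the compared groups, and 3 to 6 on leaving out libraries. For TGFβ before IFNγ, 2 became 1 without the block and 1 to 2 on leaving out libraries. For TGFβ after IFNγ, 2 became 1 without the filter, 0 without the block, 4 with only the compared groups, and 0 to 2 on leaving out libraries. For IFNγ first, 0 became 0 to 1. For slopes with duration, 0 became 0 to 4. The cause was not tested. Without the replicate block the p-values of Nfkbia (0.059) and Tnfaip3 (0.26) with IFNγ second missed the threshold. Over 18 alternatives each, the calls of Nfkb1, Nfkb2, Bcl3, Nfkbie and Traf1 with IFNγ second, of Nfkbia with TGFβ second, of Nfkbia and Bcl3 with TGFβ first, and of Bcl3 with TGFβ before IFNγ were kept in all. So were those of Nfkbia, Nfkb1, Nfkb2, Relb, Bcl3 and Traf1 with IFNγ after TGFβ.

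Counts over all genes moved too. With TGFβ second 3477 genes became 1727 without the block and 1047 with only the compared groups. TGFβ first gave 4326, 2615 and 1381, and TGFβ before IFNγ 2365 and 1233 without the block. IFNγ first gave 118, 6 without the block, 403 by DESeq2 and 0 with only the compared groups. IFNγ before TGFβ gave 14, 93 without the filter, 1 without the block, 160 by DESeq2 and 73 with only the compared groups. TGFβ after IFNγ gave 1086, 488 and 3177, and the interaction of IFNγ with earlier TGFβ 59, 114 without the filter, 16 without the block, 225 by DESeq2 and 16 with only the compared groups. Depth limits Icam1, at 0 to 2 counts, and Traf1, at 1 to 62.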

Other observations

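Of the ligands that classically feed this pathway few passed the filter on low counts. Of 12 listed, 4 were tested. The genes named next were picked after their levels were seen. Tnf stayed at or below 0.0457 CPM in every library, Ltb at or below 0.056 CPM and Lta at or below 0.173 CPM. Of 37 other targets listed 6 were below the filter, among them the chemokine gene Ccl20, with no library above 0.056 CPM, and the acute phase genes Lcn2 (at most 0.520 CPM) and Saa3 (at most 0.278 CPM).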
